A study of Caenorhabditis elegans with 8 samples.

Results

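The genes described here encode lysosomal proteases and saposin-like proteins of the nematode Caenorhabditis elegans. The families were chosen with earlier results of these data known, and their members were then taken by name alone. Members are all rows of the count table whose WormBase symbol begins with asp-, cpr-, cpl-, cpz- or spp- followed by a number. That gave 55 of 20392 genes: 17 aspartyl proteases (asp), 8 cathepsin B-like proteases (cpr), 1 cathepsin L (cpl), 2 cathepsin Z-like proteases (cpz) and 27 saposin-like proteins (spp).

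Lysosomal proteases of the worm gut are made as inactive precursors, activated in acid compartments, and break down bacterial food and the proteins that cells take up or recycle. Aspartyl proteases cut with a pair of aspartate residues and resemble mammalian cathepsin D. Cathepsins B, L and Z are cysteine proteases of the papain fold. Saposin-like proteins share a small helical domain: mammalian saposins help lipid hydrolases reach their substrates, whereas the worm caenopores insert into membranes and kill ingested bacteria. In the worm, most of the well-studied members of these families are expressed in the intestine.

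RNA of whole first-stage (L1) larvae was sequenced from 4 genotypes, with 2 libraries (a and b) each. The double mutant (strain GW1468) carried an integrated ygIs transgene, in which the baf-1 promoter drives lamin Y59C fused to GFP, together with the cec-4 deletion ok3124. The lamin Y59C strain (GW653) carried the transgene alone, the cec-4 strain (GW828) carried ok3124 alone, and wild-type animals were Bristol N2. Both transgene strains also carried the unc-119 rescue marker on the transgene in an unc-119 mutant background.

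Y59C is a substitution in lamin, the filament protein under the nuclear envelope, and CEC-4 is a chromodomain protein that holds methylated heterochromatin at the nuclear periphery. The series title names the question: whether loss of this anchor alters what the lamin mutation does. Effects of the Y59C change, of carrying a GFP-lamin transgene with its marker, and of the unc-119 background cannot be told apart, since a strain with unmutated GFP-lamin was not analysed here. Each genotype was 1 strain, and nothing in the labels says that the libraries of a genotype came from separate cultures, so p-values measure only the spread between these libraries, which may be technical. Larvae of all 4 groups hatched over 16 h without food in M9 buffer, then fed on OP50 bacteria for 2.5 h, and animals lacking the green balancer were collected by sorting.

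Library totals ranged from 30924676 to 57069281 counts, the deepest being wild-type b. In CPM, counts scaled to the library's total and its TMM factor, the cec-4 gene stood at 4.35 and 4.61 in the double mutant and 5.04 and 4.76 in the cec-4 strain, against 12.3 and 12.3 in lamin Y59C and 14.5 and 12.7 in wild-type, so it was low in all 4 libraries of the strains labelled as deleted. Transcripts of unc-119, whose rescue copy sits on the transgene, were at 41.5 to 43.3 CPM in the 4 transgene libraries, against 22.4 to 24.3 CPM in the others. Counts of lmn-1, which can hold reads of both the transgene and the native gene, came to 488 to 523 CPM in the double mutant and 511 to 519 in lamin Y59C, against 429 to 473 in cec-4 and 442 to 453 in wild-type.

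Summed intestine markers, 9 in number and none of them at 0 in any library, ranged from 4705 to 4843 CPM in the double mutant, 4830 to 5149 in lamin Y59C, 4947 to 5243 in cec-4 and 4996 to 4997 in wild-type. The intestine sum of both double mutant libraries was thus below that of either cec-4 or wild-type library and overlapped lamin Y59C. Most of each sum came from act-5 and ifb-2, so it says little about the other markers. Single markers went both ways in the double mutant against wild-type, with log2 changes from -0.28 to 0.22 and a median of -0.02. Of the 9 markers, 0 passed edgeR's test in any comparison. The part of the lower intestine sum in the results below was not tested. Of the marker lists for other tissues, 1 of 5 body wall muscle markers (unc-27) was called lower in the double mutant than in wild-type. Of 4 tested hypodermis markers, 1 (rol-6) was called lower in lamin Y59C than in wild-type. It was also called higher in the double mutant than in lamin Y59C. Over all genes, edgeR called 2.21%, 0.509% and 0.676% in these comparisons, in the order given. The pharynx, neuron, coelomocyte and germ line lists had 0 called. The low gene rol-6 had 1.56 and 1.63 CPM in the double mutant, 0.0315 and 0.252 in lamin Y59C, 1.86 and 2.88 in cec-4, and 2.13 and 1.95 in wild-type. The low gene dpy-7, not called, had 0.126 and 0.505 CPM in lamin Y59C, against 1.51 and 0.941 in wild-type. Most of each hypodermis sum came from lin-26 and elt-3, so the sums hardly show these genes. The muscle sums were 8018 to 8487 CPM in the double mutant, 8227 to 8647 in lamin Y59C, 8025 to 8698 in cec-4 and 8411 to 8758 in wild-type, and the hypodermis sums, with col-19 at 0 or nearly so, were 128 to 129 CPM in the double mutant, 140 to 140 in lamin Y59C, 135 to 147 in cec-4 and 136 to 142 in wild-type. Coelomocyte marker sums were 34.0 to 35.0 CPM in the double mutant, 34.6 to 35.0 in lamin Y59C, 37.0 to 37.6 in cec-4 and 35.6 to 37.0 in wild-type. Germ line sums were 78.7 to 80.8 CPM in the double mutant, 80.3 to 81.9 in lamin Y59C, 69.9 to 70.0 in cec-4 and 71.0 to 78.6 in wild-type. Pharynx sums were 2784 to 2834 CPM in the double mutant, 2599 to 2696 in lamin Y59C, 2715 to 2897 in cec-4 and 2862 to 2879 in wild-type, and neuron sums were 728 to 740 CPM in the double mutant, 697 to 715 in lamin Y59C, 714 to 728 in cec-4 and 730 to 753 in wild-type. The part of these sums in the results was not tested. In such whole-animal RNA, fewer cells of a type and less RNA per cell cannot be told apart.

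Together the 55 genes took a steady share of the RNA. They held 2.03% to 2.05% of all counts in the double mutant, 2.14% to 2.22% in lamin Y59C, 2.12% to 2.13% in cec-4 and 2.10% to 2.18% in wild-type. The double mutant libraries were the 2 lowest of the 8, by a narrow margin. The cathepsin B-like family ran the same way: its 8 genes held 0.332% to 0.344% of counts in the double mutant, 0.411% to 0.436% in lamin Y59C, 0.375% to 0.393% in cec-4 and 0.363% to 0.389% in wild-type. These shares are descriptions and were not tested.

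A few genes dominated. Scaled to gene length (RPKM, the CPM per kilobase of exon), the aspartyl protease gene asp-1, whose product is a major protease of the gut, averaged 4683 RPKM over the 8 libraries and ranked 23 among 19870 genes with a known length. It was followed by spp-14 at 3367 RPKM, asp-6 at 2125, spp-5, which encodes a pore-forming caenopore, at 1751, asp-3 at 1666 and cpr-9 at 1112. The libraries spread from 4376 to 4937 RPKM for asp-1, 2804 to 3874 for spp-14 and 1984 to 2238 for asp-6, so these 3 did not overlap, whereas spp-5 (1560 to 1914) and asp-3 (1603 to 1767) did. The 6 genes at 1000 RPKM or more held 66.5% of the counts of the set, and the 24 genes at 100 RPKM or more held 98.2%.

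**Figure D1:**
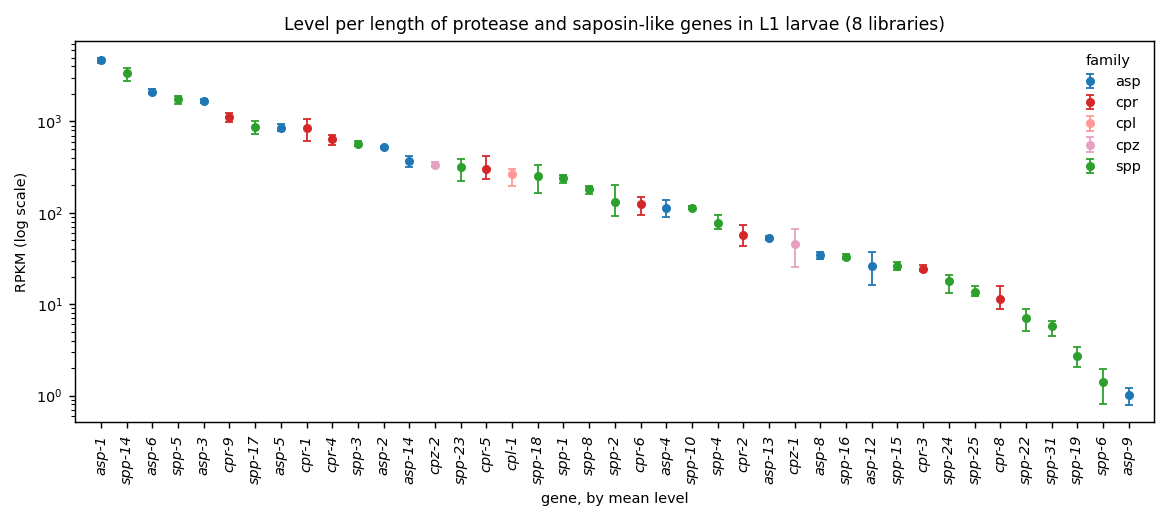
Level per length (RPKM, log scale) of each gene with a mean of at least 1 RPKM, ordered by mean; points are means over the 8 libraries, bars run from the lowest to the highest library, and colours mark the families. The highest gene, asp-1, sits at 4683 RPKM and asp-9 at the right at 1.02 RPKM.

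At the other end, 11 of the 55 genes were too low to test: asp-15, asp-18, asp-19, spp-7, spp-9, spp-11, spp-12, spp-13, spp-20, spp-21 and spp-29. None of them exceeded 11 counts in a library. Genes asp-18 and asp-19, which lie beside each other on chromosome V, had 0 counts in all 8 libraries; a count of 0 allows up to 3 counts per library, which is 0.0970 CPM in the smallest library and 0.0526 CPM in the largest without TMM factors, for counting error only. The other 44 passed the filter on low counts: 14 asp, 8 cpr, 1 cpl, 2 cpz and 19 spp genes. Their median level over the 8 libraries was 109 CPM, against 14.4 CPM for all 14355 genes tested, so they were measured with more reads than most genes they are set against below.

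Many of the abundant genes held nearly one level across genotypes. Of the 24 genes at 100 RPKM or more, 11 had their highest and lowest group means within 1.2-fold of each other, and 4 differed by 1.5-fold or more. The most abundant, asp-1, had 5471 and 5807 CPM in the double mutant, 5569 and 5455 in lamin Y59C, 5880 and 5212 in cec-4, and 5586 and 5636 in wild-type. Both lamin Y59C libraries were just below both wild-type libraries, every other pair of groups overlapped, and the 2 cec-4 libraries were farthest apart. Gene asp-3, whose product with that of asp-4 carries out necrotic neuron death in worms, had 2362 and 2508 CPM in the double mutant, 2480 and 2344 in lamin Y59C, 2436 and 2343 in cec-4, and 2583 and 2425 in wild-type, and its groups overlapped. The prosaposin-like gene spp-10 lay between 166 and 178 CPM in every library.

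**Figure D2:**
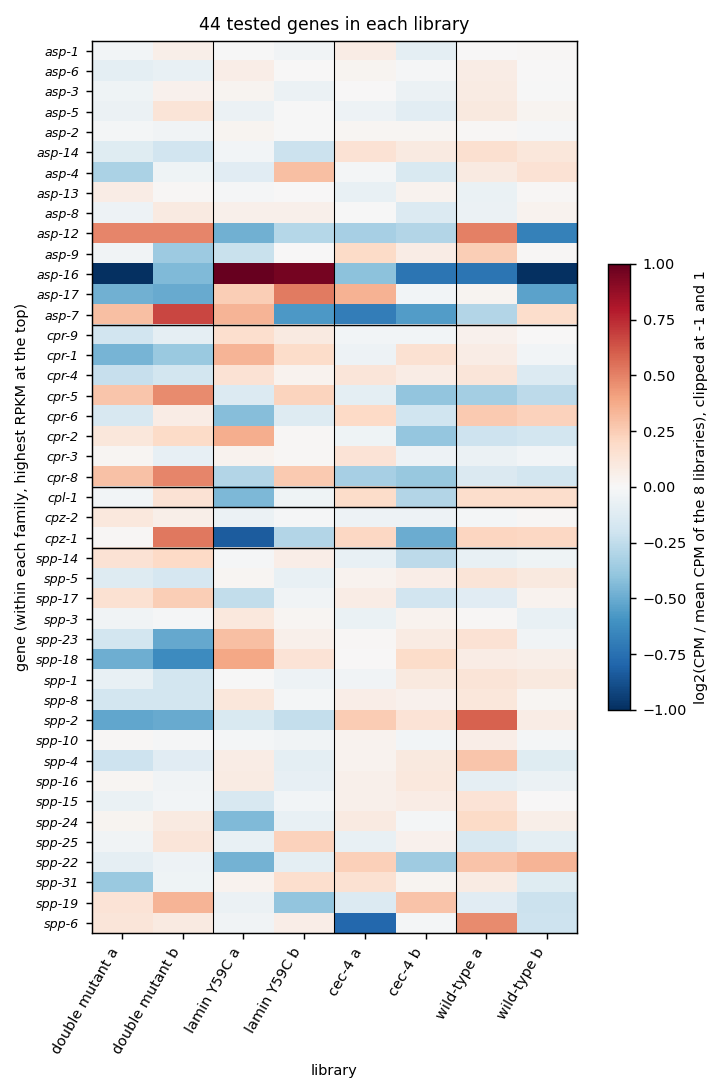
Each of the 44 tested genes (rows, by family, highest RPKM first) in each library (columns, double mutant at the left, wild-type at the right), as log2 of its CPM over its mean CPM of the 8 libraries, clipped at -1 and 1. Most rows are pale; spp-18, spp-2 and cpr-1 are blue in both double mutant columns, cpr-5 is red there, and asp-16 is red in both lamin Y59C columns.

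Set against wild-type, the double mutant gave the most changed genes: cpr-1, spp-2 and spp-18 were lower and cpr-5 was higher. In all, 4 of the 44 tested genes (9.09%) passed edgeR's quasi-likelihood test at a Benjamini-Hochberg adjusted p under 0.05 over all genes, against 2.21% of the 14355 genes tested. By direction, 1 gene was called higher against a background of 0.773%, and 3 genes were called lower against a background of 1.44%. The median change of the 44 genes was -0.03 on the log2 scale, against 0.01 for all genes.

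Gene spp-18 encodes a saposin-like protein and lies on chromosome IV (9593712 to 9594413, plus strand; WBcel235 annotation). It had 84.5 and 76.7 CPM in the double mutant, 155 and 130 in lamin Y59C, 119.3 and 135 in cec-4, and 125 and 124 in wild-type. Both double mutant libraries were below all 6 others. It was lower by 0.63 on the log2 scale than in wild-type (log2 change -0.63 ± 0.09 SE, edgeR adjusted p = 0.00997).

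Gene spp-2, another saposin-like gene, lies on the X chromosome (7315995 to 7316818, minus strand) in a row of 5 spp genes. It had 45.4 and 45.9 CPM in the double mutant, 58.6 and 55.2 in lamin Y59C, 77.5 and 71.6 in cec-4, and 98.0 and 68.4 in wild-type. The double mutant libraries were the lowest and the lamin Y59C libraries next, with no overlap between either group and wild-type, and the wild-type libraries were 1.43-fold apart. The log2 change was -0.86 ± 0.13 (SE) in the double mutant against wild-type, with an edgeR adjusted p of 0.0132, and ranged from -1.10 to -0.59 when single libraries were left out.

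The cysteine protease gene cpr-1, a cathepsin B homolog of the gut on chromosome V (11975551 to 11976756, plus strand), had 660 and 703 CPM in the double mutant, 1151 and 1033 in lamin Y59C, 881 and 1011 in cec-4, and 959 and 892 in wild-type. The double mutant was again below all 6 other libraries, while lamin Y59C was above them. Its log2 change against wild-type was -0.44 ± 0.09 (SE, edgeR adjusted p = 0.0321).

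The one gene that was higher, cpr-5, encodes another cathepsin B-like protease (chromosome V, 1132598 to 1134036, minus strand). It had 444 and 510 CPM in the double mutant, 334 and 427 in lamin Y59C, 343 and 279 in cec-4, and 290 and 306 in wild-type. Both double mutant libraries exceeded the other 6, and both lamin Y59C libraries exceeded wild-type. Its log2 change against wild-type was 0.68 ± 0.12 (SE, edgeR adjusted p = 0.0257). The called cathepsin B genes thus went opposite ways, and the whole cpr family had 4 members above and 4 below wild-type.

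**Figure D3:**
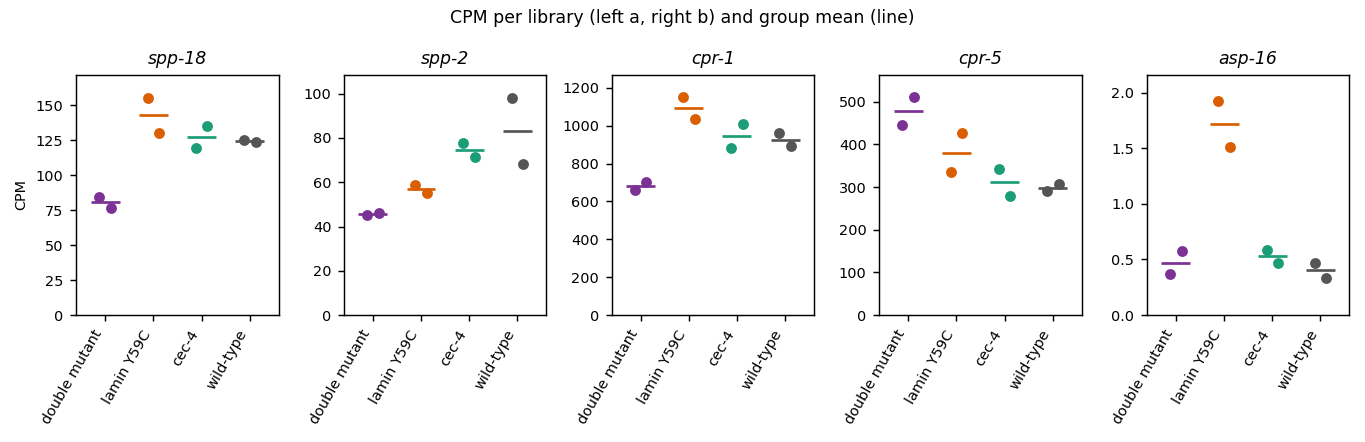
CPM of the 5 genes called in at least 1 comparison, in each library (points, a left and b right) and as group mean (line); axes start at 0 and differ between genes. The double mutant is lowest for spp-18 (84.5 and 76.7 CPM), spp-2 and cpr-1 and highest for cpr-5, and lamin Y59C is highest for asp-16.

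Next in order were genes that missed the threshold. The caenopore gene spp-5 had 592 and 577 CPM in the double mutant, against 708 and 692 in wild-type (log2 change -0.26 ± 0.06, edgeR adjusted p = 0.0557). The aspartyl protease gene asp-14 had 411 and 391 CPM in the double mutant, against 499 and 484 in wild-type (-0.29 ± 0.07, adjusted p = 0.0667), and the saposin-like gene spp-8 had 209 and 209 CPM, against 257 and 240 (-0.25 ± 0.06, adjusted p = 0.0744). In each of these the groups did not overlap. Over the 44 genes, 16 were at an unadjusted p under 0.05 (36.4%, against 17.4% of all genes), 18 had both double mutant libraries below both of wild-type (40.9%, against 24.8% of all genes) and 11 had them above (25.0%, against 25.7%).

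These calls rested on having both double mutant libraries. Without double mutant a, or without double mutant b, 0 of the 44 genes were called in the comparison with wild-type, and calls over all genes fell to 37 and 65, against 317 with all libraries. Without wild-type a 2 genes were called, spp-2 and asp-12, and without wild-type b 2 were called, spp-2 and spp-18. The log2 changes of cpr-1 (-0.49 to -0.39), spp-18 (-0.70 to -0.56) and cpr-5 (0.57 to 0.78) kept their direction in all 8 such fits.

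Loss of cec-4 within the lamin Y59C background was read from the double mutant against lamin Y59C. Here edgeR called spp-18, cpr-1 and asp-16 lower and 0 genes higher, which is 3 of 44 genes (6.82%), against 0.676% of all genes in either direction and 0.502% lower. DESeq2 called 1 higher and 6 lower, against 1.72% of the genes it tested in either direction. Both lamin Y59C libraries lay above both wild-type libraries for spp-18 and cpr-1. On the log2 scale spp-18 changed by -0.82 ± 0.09 (SE, edgeR adjusted p = 0.00639) and cpr-1 by -0.68 ± 0.09 (adjusted p = 0.0122). The median over the 44 genes was -0.03, against 0.00 for all genes.

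Gene asp-16 encodes an aspartyl protease and lies on chromosome V (19039030 to 19042605, minus strand) in a row of 4 asp genes that ends with asp-1. It was a low gene, with 12 and 18 counts in the double mutant, 61 and 48 in lamin Y59C, 18 and 18 in cec-4, and 15 and 19 in wild-type. That made 0.368 and 0.576 CPM in the double mutant, 1.92 and 1.51 in lamin Y59C, 0.589 and 0.471 in cec-4, and 0.471 and 0.337 in wild-type. Both lamin Y59C libraries stood above the 6 others, which lay between 0.337 and 0.589 CPM. Its log2 change in the double mutant against lamin Y59C was -1.86 ± 0.30 (SE, edgeR adjusted p = 0.0255).

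Among the genes not called, spp-23, cpr-9 and spp-8 had the smallest p-values in that comparison. Gene spp-23 had 87.4 and 69.8 CPM in the double mutant, against 123 and 103 in lamin Y59C (log2 change -0.52 ± 0.11, edgeR adjusted p = 0.0781). Gene cpr-9, the most abundant cathepsin B-like gene, had 1347 and 1440 CPM against 1727 and 1630 (-0.27 ± 0.07, adjusted p = 0.114). For spp-8 the adjusted p was 0.149. Without double mutant a, or without double mutant b, 0 of the 44 genes were called, and without lamin Y59C a the call of spp-18 alone was left. Calls over all genes also fell in each of these fits. Groups that did not overlap numbered 14 higher (31.8%, against 22.5% of all genes) and 16 lower (36.4%, against 21.9%), and 16 were at an unadjusted p under 0.05 (36.4%, against 13.2%).

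The lamin Y59C transgene in larvae lacking CEC-4 was read from the double mutant against cec-4. The genes spp-18, spp-2 and cpr-1 were lower, 3 of 44 (6.82%), against 0.773% of all genes in either direction and 0.509% lower. By edgeR 0 were called higher. DESeq2 called 3 higher and 6 lower, against 2.05% of the genes it tested in either direction. The 3 double mutant comparisons share the double mutant libraries, so repeated calls of a gene in them are not separate results. In edgeR's test spp-18 changed by -0.66 ± 0.09 on the log2 scale (adjusted p = 0.0117), cpr-1 by -0.47 ± 0.09 (adjusted p = 0.0373) and spp-2 by -0.71 ± 0.13 (adjusted p = 0.0470). Without double mutant a, double mutant b or cec-4 b, 0 of the 44 genes were called. The call of spp-2 was also lost without cec-4 a or either lamin Y59C library, and that of cpr-1 without either wild-type library. Over all genes, calls also fell without double mutant a, double mutant b or cec-4 b. Of the 44 genes, 18 had both double mutant libraries below both cec-4 libraries (40.9%, against 21.6% of all genes) and 9 had them above (20.5%, against 20.3%); 17 were at an unadjusted p under 0.05 (38.6%, against 13.2%).

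Some of the genes not called against cec-4 were higher in both double mutant libraries. Gene cpr-5 had a log2 change of 0.62 ± 0.12 (edgeR adjusted p = 0.0574), from the libraries given above. Its neighbour cpr-8, a low cathepsin B-like gene, had 15.3 and 17.5 CPM in the double mutant, against 9.91 and 9.60 in cec-4 (0.75 ± 0.15, adjusted p = 0.0609). The abundant saposin-like gene spp-14 had 1327 and 1379 CPM, against 1142 and 998 (0.34 ± 0.08, adjusted p = 0.0756).

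**Figure D4:**
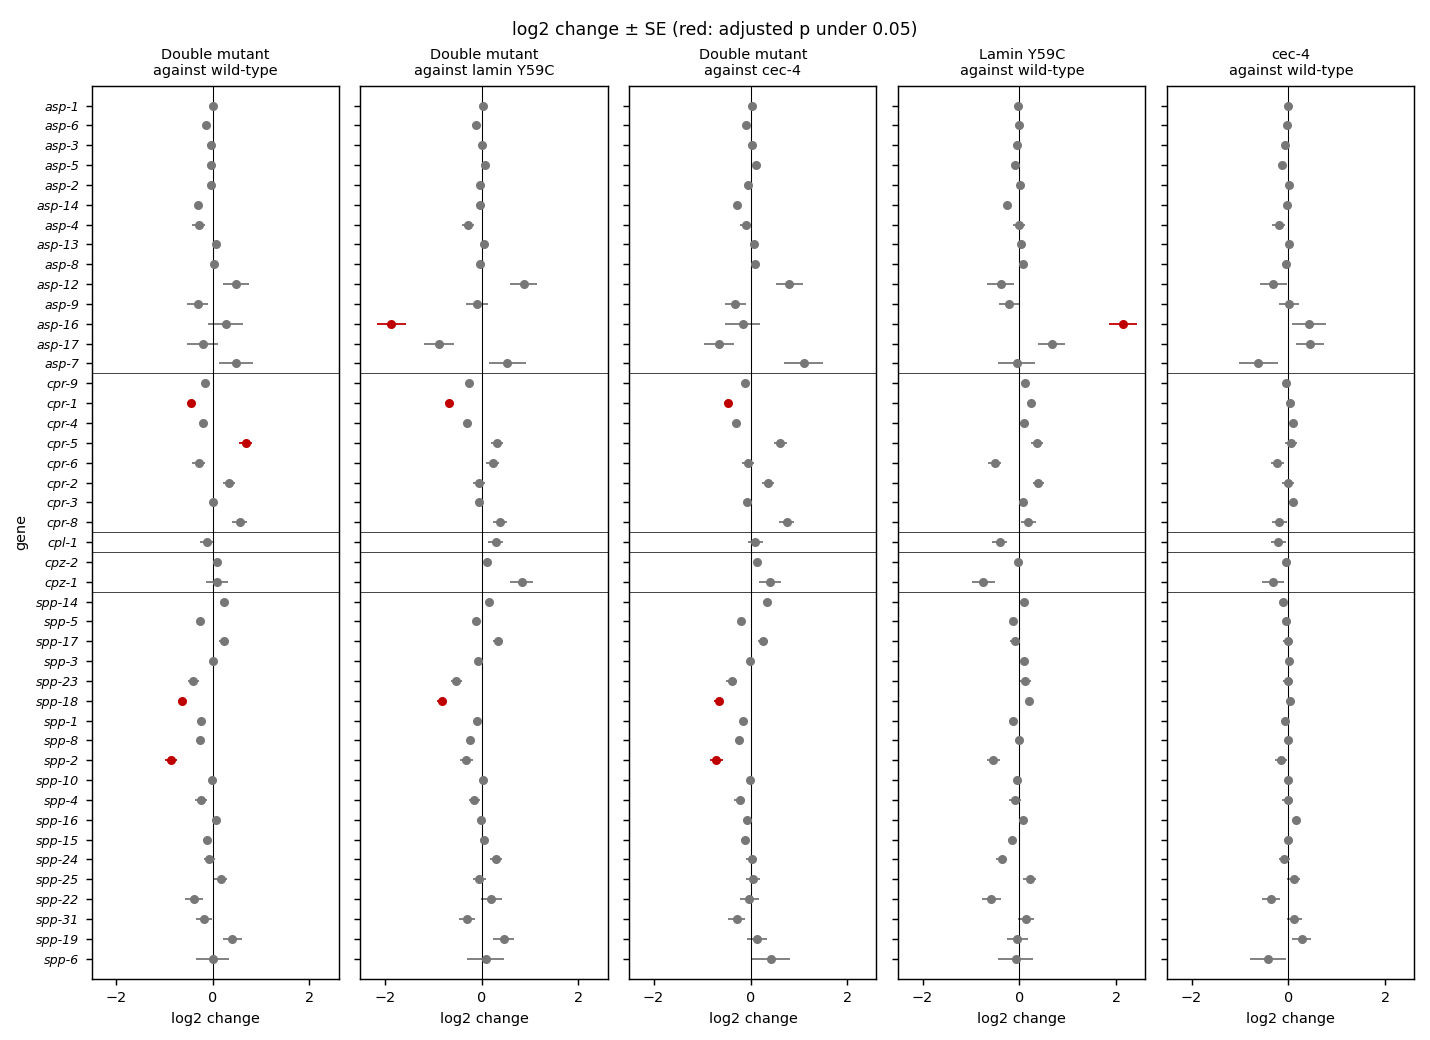
Log2 change with its SE for each of the 44 tested genes (rows, by family) in 5 comparisons (panels), with genes called at an adjusted p under 0.05 in red. Calls number 4, 3, 3, 1 and 0 from the left panel to the right, and most of the other points lie near 0.

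Against wild-type, lamin Y59C larvae differed in 1 gene of the 44 (2.27%), against 0.509% of all genes, and 0.230% called higher. That gene was asp-16, whose call in the double mutant against lamin Y59C used the same lamin Y59C libraries. Here asp-16 was 4.39-fold higher in lamin Y59C (log2 change 2.13 ± 0.29 SE, edgeR adjusted p = 0.0173). Its call was lost without wild-type a, without wild-type b or without lamin Y59C a, over which the adjusted p reached 0.159. The gut cathepsin B gene cpr-1 had a log2 change of 0.24 ± 0.08 (adjusted p = 0.240) and spp-18 one of 0.20, with an adjusted p of 0.349, so neither difference passed.

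In the same comparison spp-2 had a log2 change of -0.54 ± 0.13 (edgeR adjusted p = 0.121), which was -0.26 without wild-type a and -0.78, then called, without wild-type b (adjusted p = 0.00565). The cathepsin B-like gene cpr-6 had 118 and 145 CPM in lamin Y59C, against 189 and 185 in wild-type (-0.51 ± 0.13, adjusted p = 0.135). Its libraries had 141 and 166 CPM in the double mutant and 182 and 138 in cec-4, and both groups overlapped lamin Y59C. Gene asp-14 had 438 and 385 CPM in lamin Y59C, against 499 and 484 in wild-type (-0.26 ± 0.07, adjusted p = 0.151), and cpr-2 had 78.4 and 61.6 CPM, against 52.8 and 53.9 (0.39 ± 0.12, adjusted p = 0.181). Without lamin Y59C a the change of cpr-2 was 0.21, without lamin Y59C b that of asp-14 was -0.17, and cpr-6 was called lower with either cec-4 library left out. The median change of the 44 genes was -0.02, against 0.00 for all genes. At an unadjusted p under 0.05 there were 14 (31.8%, against 14.6% of all genes). Groups that did not overlap numbered 12 higher (27.3%, against 25.0% of all genes) and 13 lower (29.5%, against 23.7%).

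Between cec-4 and wild-type larvae no difference in these genes passed the test. By edgeR 0 of the 44 were called, against 0.0209% of all genes, 0 were at an unadjusted p under 0.05, against 4.88% of all genes, and DESeq2 called 0, against 0.0925% of the genes it tested. With wild-type b left out, 1 gene was called, asp-12. Groups that did not overlap numbered 4 higher (9.09%, against 18% of all genes) and 9 lower (20.5%, against 16.3%). The smallest p-values belonged to spp-16, asp-5 and spp-22. Gene spp-16 had 20.3 and 21.1 CPM in cec-4, against 18.4 and 18.9 in wild-type. Gene asp-5, one of the abundant aspartyl proteases, had 1024 and 983 CPM, against 1134 and 1080, and spp-22 had 4.22 and 2.80, against 4.36 and 4.53. The adjusted p was 0.897 for each of these 3. The median change was -0.02, against 0.01 for all genes.

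Whether the lamin Y59C transgene acted differently with and without CEC-4 was asked with the interaction term, the change in the double mutant over cec-4 less the change in lamin Y59C over wild-type. By edgeR 0 of the 44 genes passed, against 0.0348% of all genes. At an unadjusted p under 0.05 there were 16 (36.4%, against 10.1% of all genes), 8 in each direction. The smallest were spp-18 (-0.86 ± 0.13 on the log2 scale, adjusted p = 0.0976), cpr-1 (-0.71 ± 0.12, adjusted p = 0.116) and asp-16 (-2.29 ± 0.47, adjusted p = 0.162). With cec-4 a left out edgeR called spp-18 and cpr-1, and with lamin Y59C b left out spp-18 alone. Both spp-18 and cpr-1 were called by DESeq2, with adjusted p of 1.83e-06 and 8.12e-06, and by edgeR when no filter on low counts was used; DESeq2 called 0.488% of the genes it tested.

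Further genes had the next smallest p-values. Gene cpz-1, a cathepsin Z with a role in worm moulting, had 46.0 and 65.4 CPM in the double mutant, 25.6 and 37.1 in lamin Y59C, 52.5 and 32.2 in cec-4, and 52.7 and 52.4 in wild-type (interaction 1.15 ± 0.33, edgeR adjusted p = 0.314). Its 2 cec-4 libraries were 1.63-fold apart, and its highest and lowest group means 1.78-fold. The secreted cathepsin B gene cpr-4 had 619 and 638 CPM in the double mutant, 801 and 742 in lamin Y59C, 788 and 763 in cec-4, and 791 and 659 in wild-type (-0.39 ± 0.12, adjusted p = 0.346), and spp-23 had an adjusted p of 0.354.

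DESeq2, which estimates the spread between libraries in another way, called more genes from the same counts. Its own low-count filter differed between comparisons, and low members such as asp-16 had no DESeq2 adjusted p in some of them. DESeq2 called 9 members in the double mutant against wild-type (beside 3.90% of all genes it tested there), 7 against lamin Y59C (beside 1.72%), 9 against cec-4 (beside 2.05%) and 3 in lamin Y59C against wild-type (beside 1.71%). Each gene called by edgeR was among them. The genes it added in the double mutant against wild-type were spp-5, spp-8, spp-23 and asp-14, all lower, and cpr-8, which was higher. In lamin Y59C against wild-type it added spp-2 and asp-14, both lower. In the double mutant against lamin Y59C it added cpr-4, cpr-9 and spp-23, all lower, and spp-17, which was higher. Against cec-4 it added cpr-4, asp-14 and spp-23, all lower, and cpr-5, cpr-8 and spp-14, all higher.

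Libraries of 1 genotype could differ strongly in single genes. The aspartyl protease gene asp-12, singled out after its values were seen, had 51.1 and 51.2 CPM in the double mutant, 26.03 and 29.9 in lamin Y59C, 29.0 and 29.7 in cec-4, and 51.7 and 22.8 in wild-type. The 2 wild-type libraries were 2.27-fold apart, 1 at the double mutant level and 1 below every other library. Without wild-type b, edgeR called asp-12 lower in lamin Y59C and in cec-4 than in wild-type and positive for the interaction, and without wild-type a it was called higher in the double mutant. None of these calls stood with both libraries. The double mutant libraries of asp-12 were above both of lamin Y59C and both of cec-4. With only the compared groups fitted, which uses no wild-type library, edgeR called it higher in the double mutant in both comparisons. It did so also with either wild-type library left out, and with all libraries it called neither.

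The cathepsin genes cpl-1 and cpz-1 also differed between libraries of a genotype. Gene cpl-1, a cathepsin L needed for yolk processing and moulting in worms, had 309 and 349 CPM in the double mutant, 232 and 307 in lamin Y59C, 359 and 258 in cec-4, and 356 and 357 in wild-type. It was low in lamin Y59C a and cec-4 b, the same 2 libraries in which cpz-1 and cpr-6 were lowest. Over the 44 genes, a ratio above 1.3 between libraries of a genotype occurred for 2 in the double mutant (4.55%, against 13.1% of all genes), 5 in lamin Y59C (11.4%, against 13.6%), 6 in cec-4 (13.6%, against 14.5%) and 7 in wild-type (15.9%, against 11.3%).

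Many members lie side by side in the genome. By the WBcel235 annotation, 27 of the 55 are on chromosome V and 14 on the X chromosome, and 22 fall into 8 runs of adjacent members. Genes asp-6, asp-12 and asp-5 fill 6534 bp of chromosome V (8267511 to 8274044), and spp-3, spp-2, spp-6, spp-4 and spp-5 fill 5386 bp of the X chromosome (7314969 to 7320354). Values within a run could differ. In the X run, spp-2 was called lower in the double mutant, while spp-3 had 188 and 191 CPM in the double mutant, against 194 and 183 in wild-type, and overlapped. The uncalled spp-5 was also below wild-type without overlap, at 592 and 577 CPM against 708 and 692. Genes spp-4 (27.9 and 29.9 CPM against 39.1 and 29.7) and spp-6 (0.490 and 0.480 against 0.628 and 0.390) overlapped.

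In the asp run of 15030 bp (19035723 to 19050752 on chromosome V), asp-16 was at most 1.92 CPM and asp-1, in the same run, at least 5212 CPM. Gene asp-17, next to asp-16 and not called, had 0.914 and 1.10 CPM in lamin Y59C, above both wild-type libraries (0.785 and 0.532). Its double mutant libraries had 0.552 and 0.544 CPM, and its cec-4 libraries 0.981 and 0.759. On chromosome I, spp-17 and spp-23 are adjacent; spp-17 had 349 and 373 CPM in the double mutant, against 265 and 307 in lamin Y59C, whereas spp-23 had 87.4 and 69.8 CPM against 123 and 103; edgeR called neither and DESeq2 called spp-17 higher and spp-23 lower. Neighbours cpr-5 and cpr-8 were both highest in the double mutant; against wild-type edgeR called cpr-5 and DESeq2 called both. Counts within a run are uncertain, since how reads that fit several genes were counted is not given in the sources used here. How alike the neighbours are in sequence was not examined. Of the 55 members, 9 also overlap another protein-coding gene.

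**Figure D5:**
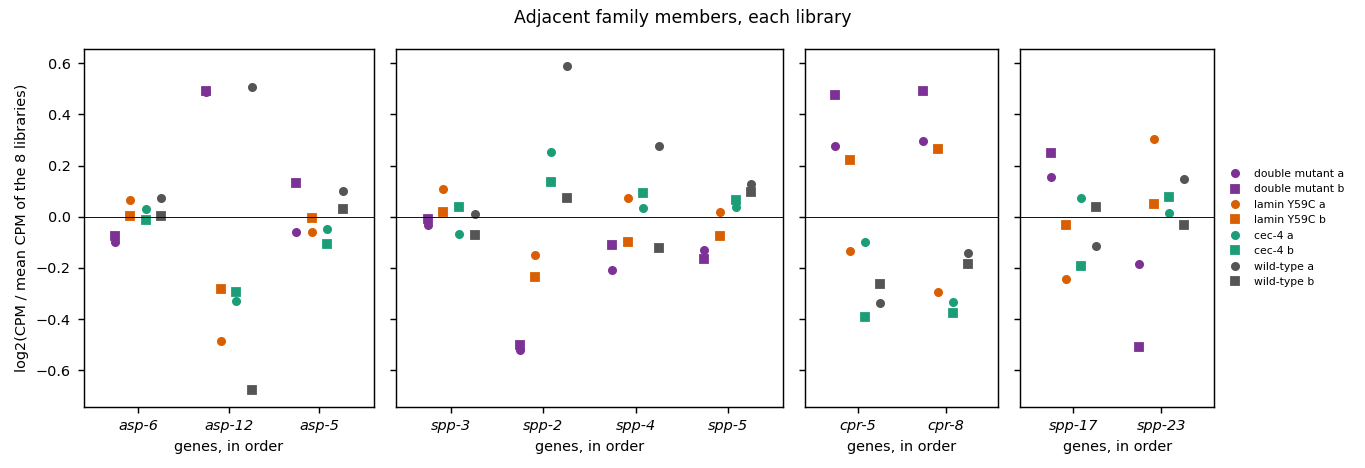
Log2 of CPM over the mean CPM of the 8 libraries for genes in 4 runs of adjacent members (panels), each library a point (circle a, square b), double mutant leftmost within each gene. The low gene spp-6 of the second run is left out; asp-12 spreads between its 2 wild-type libraries (51.7 and 22.8 CPM) while asp-6 and asp-5 beside it stay near 0.

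Other enzymes of the lysosome showed a few changes in the same larvae. Of 24 tested genes for lysosomal nucleases, lipases and glycan or lipid hydrolases, edgeR called 3 lower in the double mutant than in wild-type, beside 1.44% of all genes, and 0 higher, with a median log2 change of -0.20 against 0.01 for all genes. The DNase II gene nuc-1, which degrades DNA of eaten and dead cells, had 105 and 102 CPM in the double mutant, against 135 and 142 in wild-type (-0.42 ± 0.07, edgeR adjusted p = 0.0157). The lipase gene lipl-2 had 38.8 and 33.2 CPM, against 66.0 and 49.7 (-0.68 ± 0.14, adjusted p = 0.0402).

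The sulfatase gene sul-3 had 6.10 and 6.08 CPM in the double mutant, 9.64 and 9.50 in lamin Y59C, 9.74 and 9.39 in cec-4, and 10.1 and 8.998 in wild-type. It was lower in the double mutant than in each of the other 3 groups, with log2 changes of -0.65, -0.65 and -0.64 against lamin Y59C, cec-4 and wild-type (edgeR adjusted p = 0.0255, 0.0225 and 0.0142). It was the 1 enzyme of this list called in the first 2 of these comparisons, beside 0.676% and 0.773% of all genes. By edgeR 0 were called in lamin Y59C against wild-type, cec-4 against wild-type or the interaction, beside 0.509%, 0.0209% and 0.0348% of all genes. The 3 double mutant comparisons share the double mutant libraries, and the calls of sul-3, nuc-1 and lipl-2 were lost without either of these libraries. Against wild-type these 3 calls were also lost without wild-type a, and that of nuc-1 without wild-type b as well. Against lamin Y59C and against cec-4 the call of sul-3 was lost without either library of the group compared.

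Of 35 tested genes for lysosome membrane proteins, transporters and proton pump subunits, edgeR called 1, vha-7, which encodes an a-subunit of the pump. Over all genes, edgeR called 2.21% in the double mutant against wild-type. It called 0.509% in lamin Y59C against wild-type and 0.773% in the double mutant against cec-4. In RNA of whole larvae, the tissue of vha-7 transcripts was not resolved. Gene vha-7 had 37.8 and 39.6 CPM in the double mutant, 40.5 and 44.1 in lamin Y59C, 51.7 and 49.6 in cec-4, and 58.0 and 60.6 in wild-type. The double mutant was lowest, then lamin Y59C, then cec-4 and then wild-type, with no overlap between groups. Its log2 change was -0.62 ± 0.06 in the double mutant and -0.49 ± 0.06 in lamin Y59C against wild-type (edgeR adjusted p = 0.00140 and 0.0141), and -0.39 in the double mutant against cec-4 (adjusted p = 0.0263). The call in the double mutant against wild-type was kept with any 1 of the 8 libraries left out; that in lamin Y59C was lost without lamin Y59C a or either wild-type library, and that against cec-4 without either library of either group.

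None of 14 tested genes for protease inhibitors and necrosis proteases, nor of 13 regulators of gut and lysosome genes, was called by edgeR in any of the 6 comparisons. Over all genes, edgeR called 2.21% in the double mutant against wild-type and a smaller share in each other comparison. With lists this short, 0 calls is near that share. Nearest in the first list were the serpin gene srp-7 in the double mutant against lamin Y59C (edgeR adjusted p = 0.0535) and the calpain gene clp-6 in the interaction (adjusted p = 0.343). Nearest in the second were mxl-3, a repressor of lysosomal lipase genes, in the double mutant against cec-4 (0.57 ± 0.12, adjusted p = 0.0654) and the FOXO factor gene daf-16 in lamin Y59C against wild-type (0.29 ± 0.08, adjusted p = 0.149). DESeq2 called srp-7, mxl-3 and daf-16 in these comparisons (adjusted p = 0.00161, 0.000229 and 0.0489), and srp-7 and mxl-3 also passed in edgeR with no low-count filter or with only the compared groups fitted.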

How the data were processed

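The 8 libraries (4 genotypes, 2 each) came from a strand-keeping kit for total RNA, sequenced single-end, per the labels' protocols. The deposited table held whole-number counts per gene that the authors made from reads aligned with Bowtie to ce10; edgeR 3.24.0 was also used, both per the submitters' processing notes. How reads were counted, by which tool, on which annotation and with or without strand, is not given in the sources used here. A deposited normalized table was not used.

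Symbols were matched by WormBase gene ID for 19182 of 20392 rows; 59 symbols fit the naming rule and 55 had a row here. Gene positions and exon lengths came from a WBcel235 annotation by ID, with no coordinate converted. CPM are counts scaled to the library total and its TMM factor, and RPKM are those CPM per kilobase of exon.

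Counts were tested with edgeR 4.0.16 in R 4.3.3: filterByExpr (6037 genes with 0.0278% of counts removed, 14355 tested), TMM factors, and a two-sided quasi-likelihood F-test with 1 mean per group over all 8 libraries, which share 1 estimate of the spread (4 residual and 6.03 prior degrees of freedom). Within each comparison the Benjamini-Hochberg adjustment ran over all genes tested, and genes were called at an adjusted p under 0.05. The SE of a log2 change is its size divided by the square root of F. A gene was called not overlapping where both libraries of a group were above, or both below, both of the other. The tests were checked on simulated data.

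The genes, lists and tests were chosen with earlier results of these data known. Named were all called members, the 3 highest by RPKM in each family, the 3 smallest p-values not called in each comparison, and up to 3 genes of each partner list; other genes named (among them asp-12, spp-3, spp-10 and the members DESeq2 added) were picked after their values were seen. Alternatives were DESeq2 size factors, no low-count filter, DESeq2 1.42.0, the library letter as a block, only the compared groups, and leaving out each library.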

Additional observations from a re-analysis of the deposited data

How the results depend on the processing

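Among the 44 tested genes, edgeR called 1 in lamin Y59C against wild-type, 0 in cec-4 against wild-type, 4, 3 and 3 for the double mutant set against wild-type, against lamin Y59C and against cec-4, and 0 for the interaction. With DESeq2 these counts were 3, 0, 9, 7, 9 and 2. Without a low-count filter they were 1, 0, 6, 4, 6 and 2, and with only the compared groups fitted they were 2, 0, 7, 4 and 5, with no such fit for the interaction. DESeq2's size factors in edgeR changed none of the counts; they and the DESeq2 test moved the median change of all genes by at most 0.00498. With the letter a or b as a replicate block the counts were 1, 0, 2, 2, 1 and 0, without calls of cpr-1 and cpr-5 against wild-type, asp-16 against lamin Y59C, and cpr-1 and spp-2 against cec-4 in the double mutant; the deviations of same-letter libraries correlated between -0.31 and 0.28 over 6 pairs of groups, 1 of them over 0.1, so the letters were not taken to pair the samples. Leaving out 1 library at a time gave 0 to 2, 0 to 1, 0 to 5, 0 to 4, 0 to 4 and 0 to 2, and 0 in all 3 double mutant comparisons without either double mutant library. Over all genes, in the same order, the main fit called 73, 3, 317, 97, 111 and 5 of 14355. DESeq2 called 234, 11, 436, 236, 251 and 74, and edgeR without the filter 159, 3, 430, 182, 212 and 34 of 18780. With only the compared groups these were 124, 3, 402, 156 and 138, and with the block 27, 3, 146, 28, 58 and 4. With 1 double mutant library left out, calls over all genes also fell in the 3 double mutant comparisons. The cause of these differences was not tested.

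No single-gene change turned round under the other settings, where 247 kept their side of the threshold, 32 passed it newly and 9 no longer passed. With a library left out 388 kept their side, 20 passed newly, 63 no longer passed and 9 changed sign, all in changes that were not called. Those were, as ranges on the log2 scale, cpr-1 (-0.075 to 0.13), cpr-5 (-0.094 to 0.20), spp-2 (-0.39 to 0.12) and spp-18 (-0.066 to 0.12) in cec-4 against wild-type, asp-16 in the double mutant against wild-type (-0.082 to 0.56) and against cec-4 (-0.51 to 0.13), and spp-2 for the interaction (-0.45 to 0.076). For the called genes, adjusted p with a library left out reached 0.0985 (spp-18), 0.109 (spp-2), 0.231 (cpr-1) and 0.196 (cpr-5) in the double mutant against wild-type. With 2 libraries a group, a low gene such as asp-16, at most 61 counts in a library, is read from few counts.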
